A study of Mus musculus with 9 samples.

Results

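Interleukin-1 family ligands and their receptors were measured by RNA sequencing in cell lines from MMTV-neu mammary tumours of the mouse, in which the kinase JAK1 was either knocked out or left intact. The set held 9 genes of the 24342 in the table, taken by symbol. They were the receptor antagonist Il1rn, the ligands Il1a, Il1b, Il18 and Il33, and the receptor chains Il1r1, Il1r2, Il1rap and Il1rl1. The set was chosen by the FPKM of Il1rn, which was far lower in the knockout libraries of lines 45555 and 47298, so the members' values in these 2 lines are given as a description with no test. The members were tested only in other libraries, and a fit over the pairs of libraries, which include these lines, is given for other pathway genes.

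There were 4 Jak1 knockout and 5 Jak1 wild-type libraries, 1 for each state of a line, over 6 lines. The knockout libraries came from lines 45555, 47298 and 45566B, titled Cre and treated with puromycin, and from line 46295, titled D6. The wild-type libraries came from the same 3 lines, titled Wt and treated with puromycin, and from lines 33373 and 33377, titled Mneu. All lines came from mammary tumours of FVB/N mice that carry MMTV-neu, a transgene that places the neu (Erbb2) oncogene under a viral promoter active in mammary epithelium, and all grew in serum with insulin, epidermal growth factor and hydrocortisone. The sources used here give neither the age of the mice nor whether a line is 1 clone. No separate cultures of a line are named, and each group holds 1 library a line. The p-values of the members' test thus reflect the spread among lines. Those of the fit over the pairs reflect how far the knockout minus wild-type difference varied among lines. Biological and technical parts are not separated in either.

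Interleukin-1 alpha and beta bind the receptor IL1R1, which then recruits the accessory chain IL1RAP and signals through MYD88 and the IRAK kinases to NF-kappaB. IL1RN occupies IL1R1 without recruiting the accessory chain, and IL1R2 binds the ligand without signalling. Interleukin-33 uses IL1RL1 (ST2) with the same accessory chain, and interleukin-18 has its own receptor pair. Il1rn is known as a target of acute-phase and cytokine signals, and Il33 and Il18 are made by many epithelial and stromal cells and stored as protein.

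The values were FPKM, which scale fragments by the length of the transcript and the number of mapped fragments, so levels of different genes can be compared per length. A library held 10821 to 11622 genes at 1 FPKM or more. The absolute number of fragments is unknown. The steps between low values gave depths of 0.415 (46295 knockout) to 0.763 (33377) of that of 45566B wild type, the deepest. Jak1 itself checks the labels only weakly, since a deleted part may not show in a gene-wide value, and exons were not examined. It was at 74.4, 27.5, 14.2 and 23.0 FPKM in knockout (45555, 47298, 45566B and 46295). Its level was 86.7, 63.1, 16.1, 19.4 and 54.6 FPKM in wild type (45555, 47298, 45566B, 33373 and 33377). The deposited columns of 33373 and 33377 lack a name suffix that the other 7 carry, and whether they were processed apart is not known. The fold changes of Il1rn, Il18, Il33, Il1rap and Il18bp, the number of genes called and the counts over all pathway genes are also given without them. Other test results that use these 2 lines are given only with them. The lines also differed in cell-type markers. The summed level of 8 luminal epithelial markers spanned 7.34 to 2950 FPKM in knockout and 7.12 to 2761 FPKM in wild-type libraries, and that of 9 fibroblast or mesenchymal markers 1.31 to 3991 FPKM in knockout and 1.09 to 5635 FPKM in wild-type libraries. Epcam, an epithelial adhesion molecule, was below 1 FPKM in all 4 libraries of 45555 and 47298. In 45555 the 8 luminal markers summed to 7.34 FPKM in knockout and 7.12 FPKM in wild type, so the labelled mammary origin is not matched there by these markers, while in 47298 they summed to 414 FPKM in knockout and 99.8 FPKM in wild type, most of it the keratins Krt8 and Krt18. The leukocyte markers summed to 1.04 to 261 FPKM in knockout and 0.726 to 1047 FPKM in wild-type libraries. S100a8, a calcium-binding protein abundant in neutrophils, reached 899 FPKM in 33373, and Cd68 reached 106 FPKM in 46295 knockout. The pan-leukocyte gene Ptprc and the macrophage gene Adgre1 did not exceed 0.0867 FPKM, and the T cell gene Cd3e was listed at 0 in all 9.

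Il1rn lies on chromosome 2 from 24336853 to 24351494 on the plus strand (GENCODE vM21, GRCm38, the build called mm10) and is protein coding, with no other annotated gene across it. The gene gives secreted and intracellular forms from different starts, and a value per gene does not separate them. Its start regions are shown because Il1rn is the member with the widest mean difference between the states over the 3 lines with both. Both windows are from RefSeq on GRCm38.p6, plus strand, from 250 bases before to 50 bases after a start. Capitals mark matches to the kappaB type, GGG and CC with 5 bases of any kind between them, and to TGANTCA, the AP-1 type, searched on both strands, and these matches do not overlap each other.

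Il1rn start region at chr2:24336610-24336909: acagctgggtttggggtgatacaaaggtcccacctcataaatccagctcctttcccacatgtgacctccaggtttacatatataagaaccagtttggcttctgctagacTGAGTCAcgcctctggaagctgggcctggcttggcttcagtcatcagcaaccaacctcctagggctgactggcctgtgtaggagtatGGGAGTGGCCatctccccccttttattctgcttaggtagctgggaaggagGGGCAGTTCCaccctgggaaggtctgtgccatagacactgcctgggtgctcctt

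Il1rn start region at chr2:24345041-24345340: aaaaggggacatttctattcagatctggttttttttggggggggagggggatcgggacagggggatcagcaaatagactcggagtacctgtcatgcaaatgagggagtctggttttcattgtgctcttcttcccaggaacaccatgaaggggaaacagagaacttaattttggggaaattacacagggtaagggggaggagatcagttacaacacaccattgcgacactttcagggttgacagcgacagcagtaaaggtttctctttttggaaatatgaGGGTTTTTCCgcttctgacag

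The upstream window held the kappaB type at 54 and 4 bases before the start and TGANTCA at 141 bases before it. The downstream window held the kappaB type at 29 bases after the start, and a further window for a start in the same region held the same match. The kappaB type occurs in 50.8% of the 32851 windows of the table and TGANTCA in 7.81%, so these matches describe the letters only. TTCNNNGAA, the type bound by STAT factors, is in 8.3% of all windows. Among the 14 windows of the 9 members it was found in 1, that of Il1r2. TTGCNNAA, the C/EBP type, is in 10.8% of all windows and in 3 of the 14, those of Il1r1, Il1rl1 and Il33. The interferon-response type, GAAA followed by any 2 bases and GAAA again, is in 3.44% of all windows and in 1 of the 14, that of Il1rap. No match says only that these letters are not in the window.

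The antagonist Il1rn was the most strongly expressed member on average, and all 4 knockout libraries were lower than all 5 wild-type libraries. It was at 13.6, 7.10, 16.0 and 12.6 FPKM in knockout (45555, 47298, 45566B and 46295). It was at 234, 343, 21.5, 47.4 and 81.8 FPKM in wild type (45555, 47298, 45566B, 33373 and 33377). The knockout libraries thus lay close together, with a 2.26-fold range and 12.3 ± 3.77 FPKM (SD, n = 4). The wild-type libraries spanned a 15.95-fold range at 145.6 ± 138 FPKM (SD, n = 5), and the lines with the widest difference were those with the highest wild-type level. Of 12198 genes averaging 1 FPKM or more, 0.303% had every knockout library below every wild-type library. Since 2 of the 4 knockout libraries chose the set, nothing is read from that share.

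**Figure D1:**
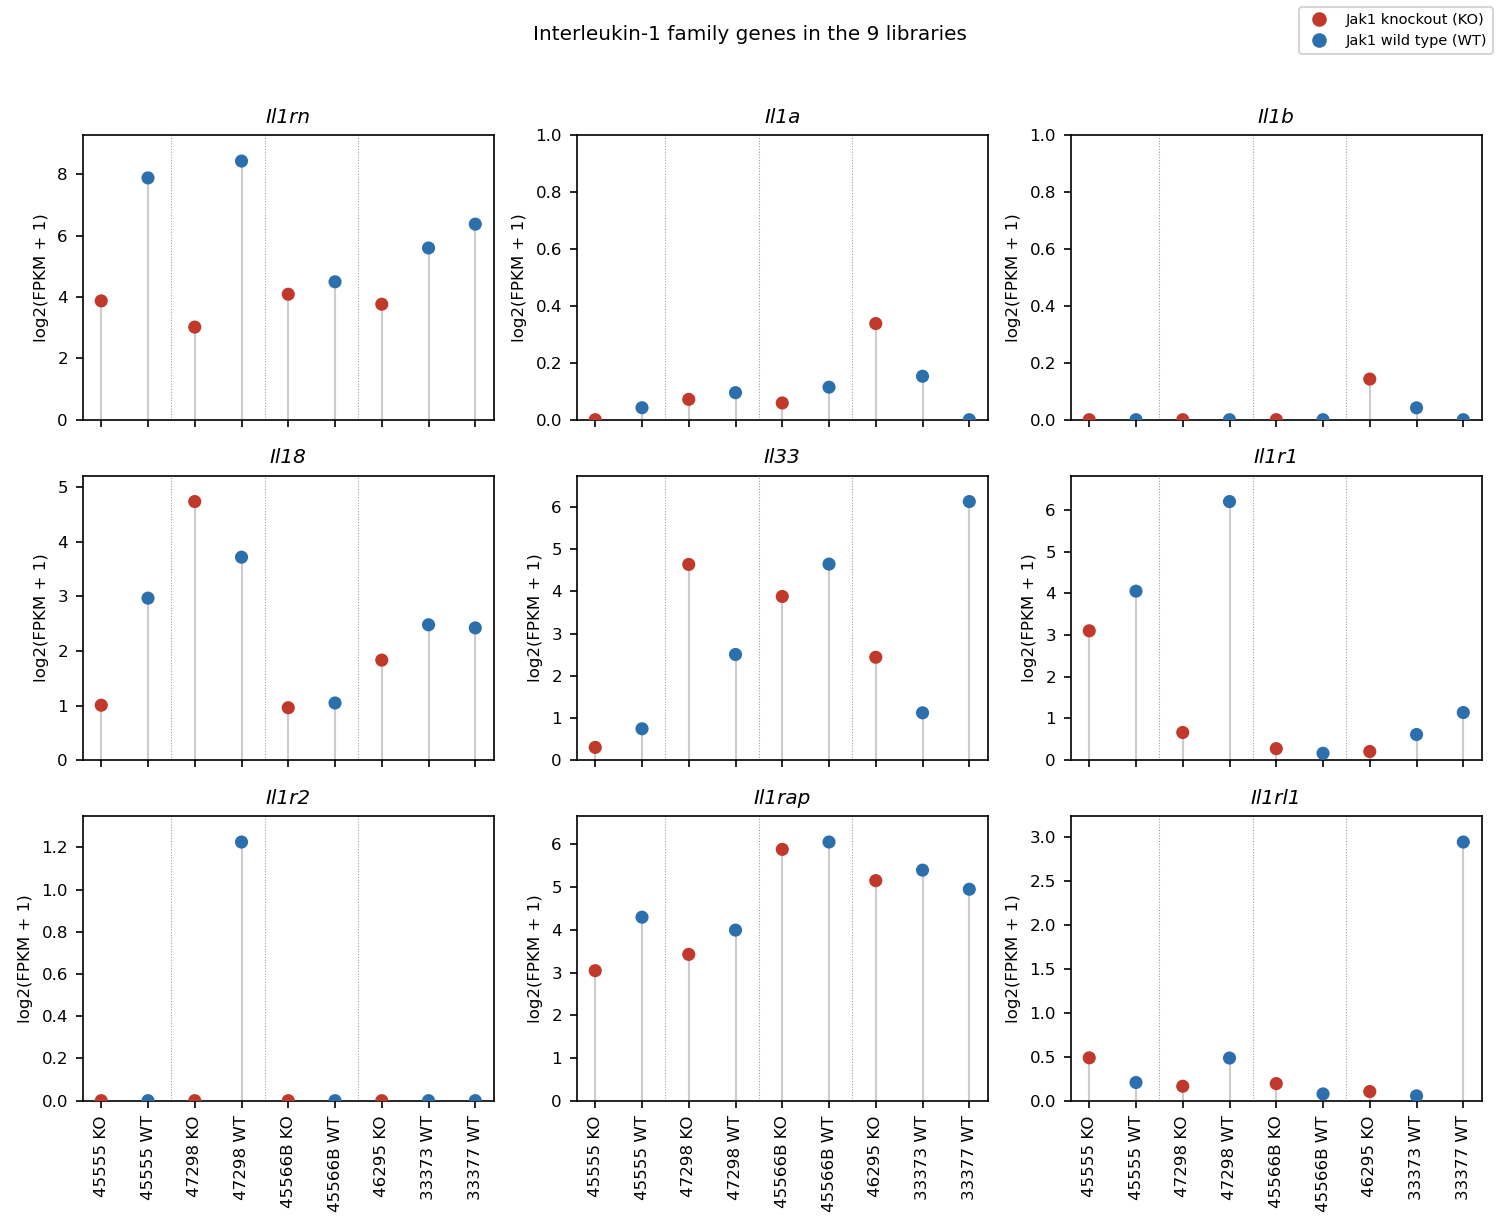
Level of each of the 9 genes as log2(FPKM + 1) on the vertical axis in each library on the horizontal axis, knockout in red and wild type in blue, 1 point a library, with dotted lines between the lines present in both states and the rest. Il1rn is present in all 9 libraries, Il1a and Il1b stay below 1 FPKM throughout, and Il1r2 and Il1rl1 reach 1 FPKM in 1 library each.

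Within the lines, the difference in log2(FPKM + 1) of Il1rn, knockout minus wild type, was -4.01 in 45555, -5.41 in 47298 and -0.40 in 45566B. The first 2 are the values that chose the set, and the mean of the 3 lines was -3.27 ± 2.58 (SD, n = 3). Line 45566B did not choose the set, and its knockout library was at 16.0 FPKM against 21.5 FPKM in wild type. In that line 7.58% of genes differed by as much or more in the same direction, and with 1 library a state the difference has no replicate check. The size thus differed among the 3 lines, and only in 45566B was the direction not set by the choice.

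The libraries of 45566B, 46295, 33373 and 33377 played no part in choosing the set and gave a test, which has no term for the line and so treats both libraries of 45566B as independent. Knockout libraries of 45566B and 46295 were set against wild-type libraries of 45566B, 33373 and 33377, on log2(FPKM + 1) with limma and Benjamini-Hochberg adjustment over the 11838 genes averaging 1 FPKM or more in these 5 libraries. Il1rn averaged 14.3 ± 2.43 FPKM in knockout (SD, n = 2) and 50.2 ± 30.3 FPKM in wild type (SD, n = 3), and both knockout libraries lay below the 3 wild-type libraries, as in 6.43% of the genes tested. The log2 fold change of -1.56 (SE 0.58) did not pass (limma, adjusted p = 0.999, range 0.311 to 1 over the alternatives). Without 33373 and 33377 it was -0.57 (SE 0.39; limma, adjusted p = 1.000). That fit has 1 wild-type library, which is assumed to vary like the 2 knockout libraries. Within 45566B alone the difference was -0.40, and without 33377 alone the log2 fold change was -1.12 (SE 0.47). Library 33377 had the highest Il1rn of the 5, and its 8 luminal markers summed to 161 FPKM, against 2455 to 2950 FPKM in the others. Its 9 fibroblast or mesenchymal markers summed to 398 FPKM, against 197 FPKM in 33373 and at most 3.07 FPKM in the rest. Knockout state and marker levels are thus mixed in this comparison, and the part of the markers was not tested.

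None of the other members passed that comparison either. limma called 0 of the 11838 genes, a share of 0%, with 215 genes (1.82%) at an unadjusted p under 0.05, among which Il1rn was the only member. Of the 9 genes, 5 passed the filter on low values, and Il1rl1 did so only through 33377. The log2 fold changes were -0.59 (SE 0.61) for Il18 and -0.81 (SE 1.54) for Il33. They were 0.05 (SE 0.43) for Il1rap and -0.87 (SE 1.04) for Il1rl1. Each of these 4 had an adjusted p of 0.999 (limma). Their directions are uncertain, since that of Il18 turned to 0.35 without 33373 and 33377, that of Il33 to 0.27 without 33377 alone (-1.49 without both lines) and that of Il1rap to -0.54 without 33373 and 33377.

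**Figure D2:**
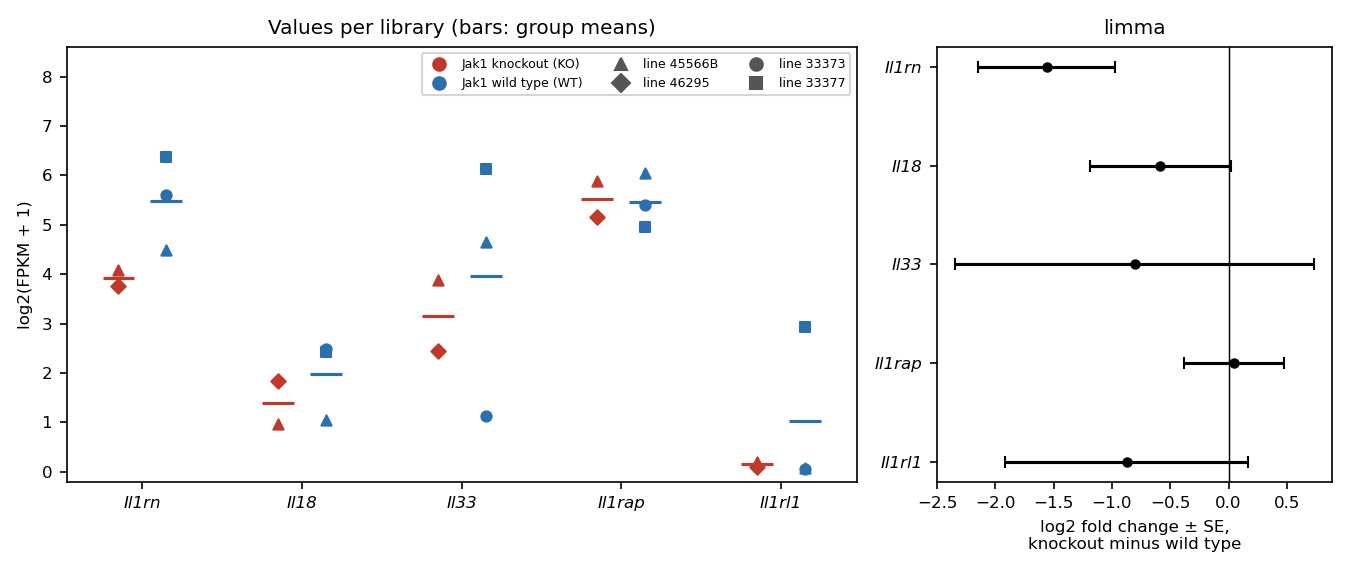
Left, log2(FPKM + 1) of the 5 genes that passed the filter in 2 knockout (red) and 3 wild-type (blue) libraries, with symbols for the lines and bars for group means. Right, limma log2 fold change, knockout minus wild type, with its SE; Il1rn is the gene whose groups do not overlap, at -1.56.

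The ligands of IL1R1 were below 1 FPKM in all 9 libraries. Il1a, on chromosome 2 from 129299610 to 129309972, minus strand, was at 0, 0.0508, 0.0416 and 0.264 FPKM in knockout (45555, 47298, 45566B and 46295). It was at 0.0296, 0.0680, 0.0824, 0.112 and 0 FPKM in wild type (45555, 47298, 45566B, 33373 and 33377). Il1b, 54.6 kb away on the same strand, was listed at 0 in 7 libraries, at 0.104 FPKM in 46295 knockout and at 0.0293 FPKM in 33373. At these levels no difference between the states was detectable. Antisense genes or other overlapping transcripts are annotated across Il1a, Il1b, Il1r1, Il1r2 and Il1rap, and with the use of strand unknown their reads cannot be told apart. The antagonist was thus above 7 FPKM in every library, and the 2 ligands it competes with were near or at 0.

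Il18, a ligand made as a precursor that caspase 1 cleaves, went opposite ways in lines 45555 and 47298. It lies on chromosome 9 from 50554827 to 50581840 on the plus strand, overlapping Bco2 and Tex12 on the other strand, which did not exceed 0.665 FPKM. It was at 1.01, 25.6, 0.945 and 2.56 FPKM in knockout (45555, 47298, 45566B and 46295). It was at 6.81, 12.1, 1.07, 4.57 and 4.35 FPKM in wild type (45555, 47298, 45566B, 33373 and 33377). The groups overlapped, and the highest library was the knockout of 47298. The log2 differences were -1.96 in 45555, 1.02 in 47298 and -0.09 in 45566B.

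Il33, an alarmin stored in the nucleus, likewise had no common direction. It lies on chromosome 19 from 29925114 to 29960718 on the plus strand. It was at 0.234, 23.9, 13.7 and 4.42 FPKM in knockout (45555, 47298, 45566B and 46295). It was at 0.675, 4.68, 24.1, 1.18 and 69.0 FPKM in wild type (45555, 47298, 45566B, 33373 and 33377). The log2 differences were -0.44, 2.13 and -0.77 in 45555, 47298 and 45566B. Both Il18 and Il33 were thus higher in the knockout library of 47298, the library in which the 8 luminal markers summed to 414 FPKM against 99.8 FPKM in the wild type of that line. Among them Krt8 was at 156.6 FPKM in that knockout and 38.5 FPKM in its wild type, and Krt19 at 0.307 FPKM in that knockout and 5.97 FPKM in its wild type. The part of the marker change in these differences was not tested.

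**Figure D3:**
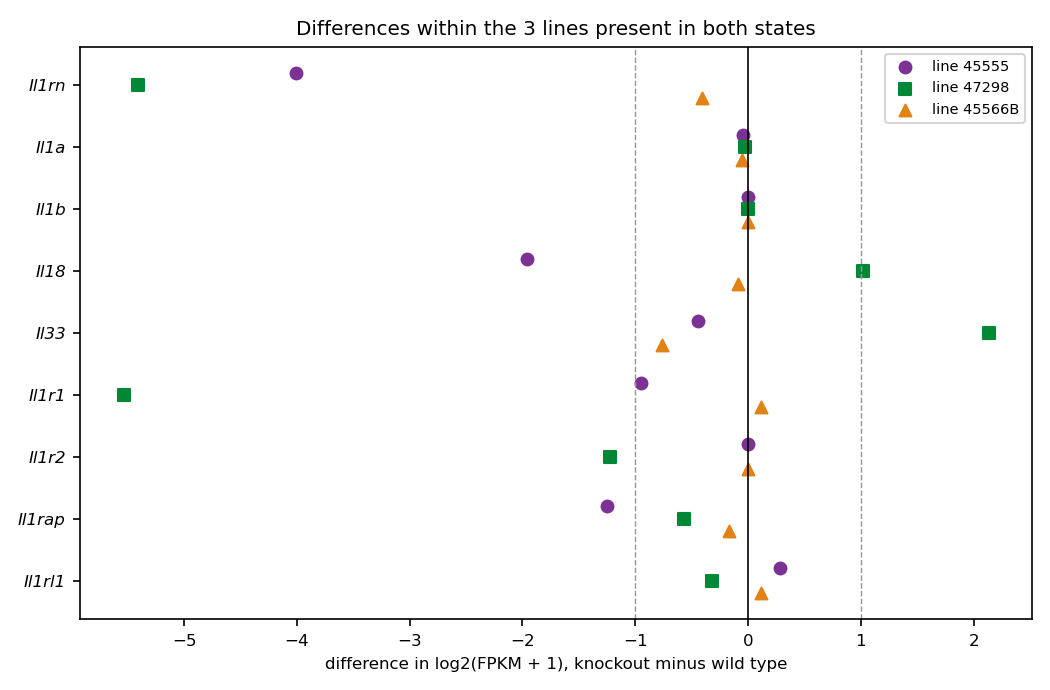
Difference in log2(FPKM + 1), knockout minus wild type, on the horizontal axis for the 9 genes down the page in lines 45555, 47298 and 45566B, 1 point a line, with dashed lines at 1 log2 unit either way. Il1rn, Il1rap and Il1a lie left of 0 in all 3 lines, with Il1a no lower than -0.06. Of these lines, 45555 and 47298 chose the set. Il18 and Il33 lie on both sides.

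Il1r1, the signalling receptor, was expressed mainly in the lines rich in collagen transcripts. It lies on chromosome 1 from 40225080 to 40317257 on the plus strand. It was at 7.58, 0.584, 0.211 and 0.155 FPKM in knockout (45555, 47298, 45566B and 46295). It was at 15.6, 72.5, 0.121, 0.532 and 1.21 FPKM in wild type (45555, 47298, 45566B, 33373 and 33377). The groups overlapped, and the 3 highest libraries were both of 45555 and the wild type of 47298. The log2 differences were -0.95 in 45555, -5.54 in 47298 and 0.11 in 45566B.

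The low Il1r1 of 47298 knockout came with a lower sum of fibroblast or mesenchymal markers in the same library, most of it collagen. Col1a1, a fibrillar collagen chain, was at 65.5 FPKM in the knockout and 1728 FPKM in the wild type of 47298, and at 1675 and 1879 FPKM in those of 45555. The 9 fibroblast or mesenchymal markers summed to 356 FPKM in the knockout and 5635 FPKM in the wild type of 47298, and to 3991 and 5270 FPKM in those of 45555. The list did not move as one, since Dcn, a matrix proteoglycan, was at 27.3 FPKM in the knockout and 12.2 FPKM in the wild type of 47298, and Fap was at 0.898 and 0.931 FPKM in them. In bulk RNA, fewer cells of a type and less RNA per cell cannot be told apart, and the part of this change in the Il1r1 values was not tested. Il1r2, the decoy receptor, on chromosome 1 from 40074079 to 40125231, was at 1.34 FPKM in the wild type of 47298, the library with the highest Il1r1, and listed at 0 in the other 8.

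Il1rap, the accessory chain shared by the receptors for interleukin-1, interleukin-33 and interleukin-36, was present in every library and varied less than the other receptor chains. It lies on chromosome 16 from 26581704 to 26730117 on the plus strand. It was at 7.25, 9.75, 58.1 and 34.6 FPKM in knockout (45555, 47298, 45566B and 46295). It was at 18.7, 14.9, 65.6, 41.2 and 30.0 FPKM in wild type (45555, 47298, 45566B, 33373 and 33377). The lines without Epcam, 45555 and 47298, had the 4 lowest values, and in each of the 3 lines the knockout library was the lower one. The log2 differences were -1.25, -0.57 and -0.17 in 45555, 47298 and 45566B, a mean of -0.66 ± 0.55 (SD, n = 3).

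Il1rl1, the receptor of interleukin-33, was below 1 FPKM in 8 libraries and at 6.67 FPKM in 33377, which also had the highest Il33. In the others it ranged from 0.0745 to 0.401 FPKM in knockout and from 0.0388 to 0.399 FPKM in wild type. It lies on chromosome 1 from 40429570 to 40465415 on the plus strand, 0.136 kb before Il18r1.

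Counted by line, 4 of the 9 genes averaged 1 FPKM or more in 45555, of which 3 were lower in knockout by at least 1 log2 unit and 0 higher, where 7.3% of all genes were lower by as much and 3.51% higher. In 47298, 5 genes reached that mean, with 2 lower and 2 higher by at least 1 log2 unit, where 11.8% of all genes were lower and 9.1% higher. These 2 lines chose the set, so the counts are a description. In 45566B, 4 genes reached that mean and 0 differed by 1 log2 unit, where 2.52% of all genes were lower by as much and 0.988% higher. All 4 lay below 0, from -0.09 (Il18) to -0.77 (Il33), with a median difference of 0.01 over all genes. Among members below that mean, Il1a was lower, at -0.06, and Il1r1 and Il1rl1 were higher, at 0.11 and 0.12.

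The receptor genes form a run on chromosome 1, from 40074079 to 40551705, in the order Il1r2, Il1r1, Il1rl2, Il1rl1, Il18r1 and Il18rap, with no other protein-coding gene between them. The 2 ends of this run were highest in different lines, Il1r2, Il1r1 and Il1rl2 in the wild type of 47298 and Il18r1 and Il18rap in 45566B and 46295. Il1rl2, the interleukin-36 receptor, was at 2.88, 0.180, 0 and 0.836 FPKM in knockout (45555, 47298, 45566B and 46295). It was at 8.58, 8.94, 0, 3.64 and 3.58 FPKM in wild type (45555, 47298, 45566B, 33373 and 33377). Il18r1, the ligand-binding chain for interleukin-18, went the other way across lines, with 0.0446, 1.61, 27.96 and 45.8 FPKM in knockout (45555, 47298, 45566B and 46295). It had 0.0329, 0.673, 27.3, 9.23 and 1.54 FPKM in wild type (45555, 47298, 45566B, 33373 and 33377). The accessory chain Il18rap was at 8.85 FPKM in the knockout and 8.81 FPKM in the wild type of 45566B and at 7.88 FPKM in 46295 knockout. Il18r1 and Il18rap differed little within 45566B, while Il1r1 and Il1rl2 were at most 0.211 FPKM in both its libraries.

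**Figure D4:**
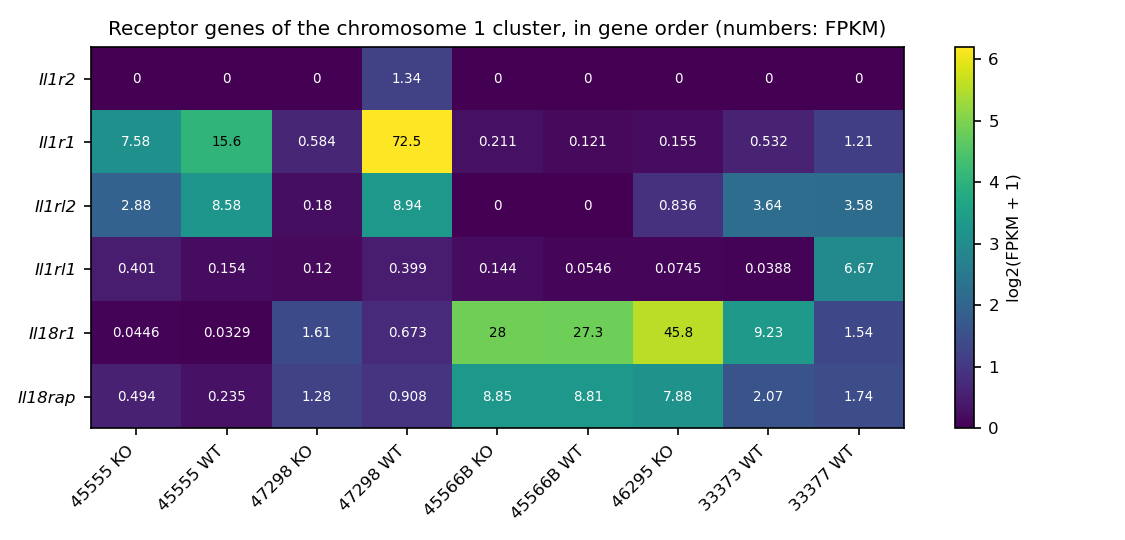
FPKM of the 6 receptor genes of the chromosome 1 run, in gene order down the page, in the 9 libraries across, with colour for log2(FPKM + 1). Il1r1 is highest in 47298 wild type at 72.5 FPKM and Il18r1 in 46295 knockout at 45.8 FPKM.

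Among the other ligands and antagonists of the family, Il18bp, the secreted protein that neutralises interleukin-18, had its lower values in the knockout libraries of the independent comparison. It was at 0.307 and 1.02 FPKM in the knockout libraries of 45566B and 46295, against 5.26, 6.13 and 10.6 FPKM in wild type (45566B, 33373 and 33377). The groups did not overlap, with knockout lower as in 6.43% of the genes tested, but the log2 fold change of -2.30 (SE 0.42) did not pass (limma, adjusted p = 0.503). Without 33373 and 33377 it was -1.94 (SE 0.57; limma, adjusted p = 1.000), again with 1 wild-type library and the spread taken from the 2 knockout libraries. In 45555 it was at 0.492 FPKM in knockout and 0.787 FPKM in wild type, and in 47298 at 2.66 FPKM in knockout and 1.74 FPKM in wild type. Il1f6 (interleukin-36 alpha) was at 27.3 FPKM in the knockout and 54.95 FPKM in the wild type of 45566B, at 6.28 FPKM in 46295 knockout and 14.6 FPKM in 33373, and listed at 0 in the other 5 libraries. Il1f10, whose gene ends 43.0 kb before Il1rn, was listed at 0 in both knockout libraries of 45555 and 47298, against 2.51 and 16.6 FPKM in their wild types, and at 0 in the remaining 5. The libraries with Il1f10 were thus the 2 with the highest Il1rn.

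The 59 names listed for further pathway genes stood for 55 genes, since interleukin-36 genes were listed under older and newer names. All 55 were measured and none passed in either test. In the independent libraries 47 were tested, with 24 lower, 23 higher and a median log2 fold change of -0.01, against 0.02 over all genes. Without 33373 and 33377, 23 of 42 were lower and 19 higher. Across the 3 pairs, with the line as a block (limma, 12063 genes, 0 called, a share of 0%, with 406, or 3.37%, at an unadjusted p under 0.05), 45 were tested, with 27 lower, 18 higher and a median of -0.09, against -0.01 over all genes. The 3 pathway genes at an unadjusted p under 0.05 in the pairs were Myd88, Casp4 and Gsdmd, all lower, of which Myd88 and Gsdmd were named after their values were seen. Their log2 differences were -0.64, -1.13 and -1.51, with SEs of 0.22, 0.28 and 0.42, each at an adjusted p of 0.762 (limma).

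By role, the relay from receptor to NF-kappaB held genes that differed in both directions. Its 16 genes had a median log2 difference of 0.03 in the independent libraries and -0.03 in the pairs. Irak3, a pseudokinase that restrains signalling from the interleukin-1 receptor, was at -0.73 (SE 0.46) in the independent libraries and -1.84 (SE 0.82) in the pairs and did not pass (limma, adjusted p = 0.999 and 0.762). Its log2 differences were -1.71 in 45555, -3.91 in 47298 and 0.10 in 45566B. Irak3 is named for its correlation with Il1rn over all 9 libraries, so both of its fits are a description only. The 3 most expressed genes of the role overlapped between the states. Nfkb1, the precursor of an NF-kappaB subunit, was at 26.9 to 44.9 FPKM in knockout and 34.1 to 51.7 FPKM in wild-type libraries. Tab2, an adaptor of the kinase TAK1, was at 29.0 to 47.6 FPKM in knockout and 29.0 to 46.9 FPKM in wild type. Tollip, an inhibitor of the IRAK kinases, was at 23.3 to 39.3 FPKM in knockout and 28.6 to 47.2 FPKM in wild type. Of 9 genes for processing the precursors, 6 were tested. In the independent libraries 4 were lower and 2 higher, where 47.7% of all genes tested were lower. In the pairs 3 were lower and 3 higher, where 51.4% of all genes tested were lower. Casp4, an inflammatory caspase, was at 6.88, 10.1 and 4.31 FPKM in the knockout libraries of 45555, 47298 and 45566B, against 23.2, 26.5 and 6.36 FPKM in their wild types. It was at 10.0 FPKM in 46295 knockout, 12.5 FPKM in 33373 and 15.8 FPKM in 33377, so the states overlapped. In the independent libraries its log2 fold change was -0.63 (SE 0.51; limma, adjusted p = 0.999). Casp1, which cleaves interleukin-18, was at 0.0300 FPKM in 45555 knockout, 0.120 FPKM in 45555 wild type and 17.6 FPKM or more in the other 7 libraries, and Casp8 was between 14.3 and 42.9 FPKM in all 9.

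Among 18 genes known to be induced by interleukin-1, all were tested in the independent libraries, where 11 were lower and 7 higher. In the pairs 15 were tested, with 10 lower and 5 higher. Of all genes tested, 47.7% were lower in the independent libraries and 51.4% in the pairs. None of the 18 genes passed in either test. Lcn2, which binds bacterial siderophores, was the most abundant, at 13657 and 19954 FPKM in the knockout libraries of 46295 and 45566B and 5780 to 28691 FPKM in wild type (45566B, 33373 and 33377). In 45555 it was at 15.7 FPKM in knockout and 13.6 FPKM in wild type, and in 47298 at 816 FPKM in knockout and 369 FPKM in wild type. Saa3, an acute-phase protein, was at 3699 FPKM in 33373 and at most 8.41 FPKM elsewhere. Csf3, a granulocyte growth factor, was at 381 FPKM in the knockout and 727 FPKM in the wild type of 45566B. It was at 121 FPKM in 46295 knockout, 263 FPKM in 33373 and 1.70 FPKM in 33377. In 45555 and 47298 it was at most 0.723 FPKM. Its log2 fold change was 1.43 (SE 2.51) in the independent libraries and -0.56 (SE 0.21) in the pairs.

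The 5 genes most like Il1rn over the 9 libraries, by Pearson correlation of log2(FPKM + 1) among 12198 genes, were Zfp281 (r = 0.958), Ifitm2 (0.953), Spidr (0.944), Dnajc30 (0.923) and Irak3 (0.919), with Spearman correlations of 0.983, 0.933, 0.983, 0.917 and 0.95 in that order. These points share lines and are a description of 9 libraries. Irak3 was at 3.58, 1.64, 4.80 and 1.37 FPKM in knockout (45555, 47298, 45566B and 46295). It was at 14.0, 38.7, 4.42, 6.005 and 5.18 FPKM in wild type (45555, 47298, 45566B, 33373 and 33377). Ifitm2, an interferon-induced membrane protein, was at 328, 336, 378 and 363 FPKM in those knockout libraries. It was at 994, 1604, 519, 431 and 783 FPKM in those wild-type libraries, with no overlap. Of the 12198 genes, 0.303% had every knockout library below every wild-type library. Genes picked here for likeness to Il1rn share its order of libraries, so nothing is read from a lack of overlap. Zfp281, a zinc finger transcription factor, varied far less, from 6.30 to 9.06 FPKM in knockout and from 9.50 to 16.7 FPKM in wild type.

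**Figure D5:**
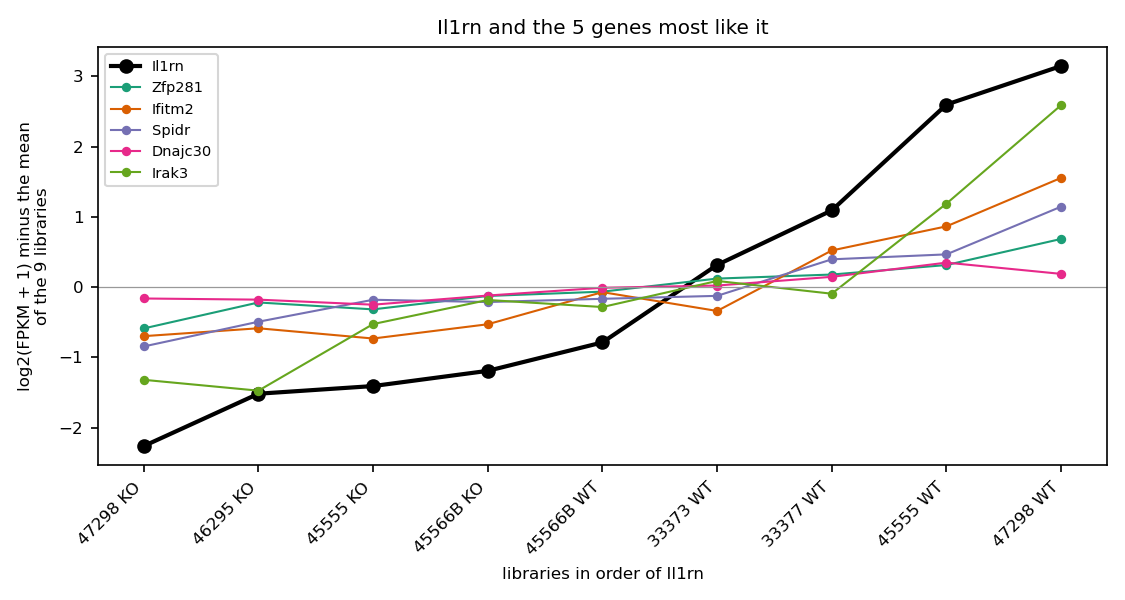
log2(FPKM + 1) minus the mean of the 9 libraries on the vertical axis for Il1rn and the 5 genes most like it, with the libraries on the horizontal axis in order of Il1rn. The 4 knockout libraries are the 4 lowest for Il1rn, and Irak3 is highest in 47298 wild type at 38.7 FPKM.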

How the data were processed

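RNA was sequenced from 9 cell line libraries. The authors used cutadapt, TopHat2 2.1, Cufflinks 2.2 and Cuffnorm on mm10, in an order not stated, per the submitters' processing notes. Scaling, annotation, filters and strand use: not given in the sources used here. The deposited values are FPKM per gene symbol in 2 tables. All values were read from the table of 9 libraries, since the 4 columns of the other were identical. Of 24346 rows, 4 with repeated names that a spreadsheet had turned into dates were left out. Positions came from GENCODE vM21 on GRCm38, where 23284 symbols matched.

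FPKM hold no counts, so tests used log2(FPKM + 1) and limma 3.58.1 (R 4.3.3), two-sided, with variances that follow the mean, on genes averaging 1 FPKM or more, and Benjamini-Hochberg adjustment at 0.05. Fold changes on this scale understate the change of low genes. The independent libraries had no covariate. The 3 pairs had the line as a block: the labels name the same line in both states, and the libraries of a line deviated together (correlations of 0.700, 0.399 and 0.804 in 45555, 47298 and 45566B). Relative depth is the inverse of the most frequent ratio of values under 0.5 FPKM to those of 45566B wild type. The tests were tested on simulated data. The alternatives were a pseudocount of 0.1, no filter or a filter at 5 FPKM, upper-quartile rescaling, a single prior variance, left-out libraries or lines, and no block. The rule for named genes took the members, Jak1, 5 genes by correlation with Il1rn, and the 3 most expressed genes of each pathway role. Further genes named from the marker lists (Epcam, Krt8, Krt18, Krt19, Col1a1, Dcn, Fap and leukocyte markers) were picked with values seen; Il1rl2, Bco2 and Tex12 were named for their position. The members and lists were chosen with earlier results of these data known.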

Additional observations from a re-analysis of the deposited data

Results flagged for a closer look

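Among the groups of 4 knockout or 5 wild-type values of a member, 5 had a library far from the others on the log2(FPKM + 1) scale. Chance gives this in about 1 in 20 groups, a share that does not apply to Il1b and Il1r2, where all other values of the group are listed at 0. Il1r1 stood at 7.58 FPKM in 45555 knockout. Il1rl1 stood at 6.67 FPKM in 33377 wild type, and Il1r2 at 1.34 FPKM in 47298 wild type. Il1b stood at 0.104 FPKM in 46295 knockout and at 0.0293 FPKM in 33373 wild type.

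The knockout minus wild-type difference of Il18 was below 0 in 45555 and above 0 in 47298, so that 45555 minus 47298 came to -2.98 log2 units. That of Il33 was above 0 in 47298 and below 0 in 45566B, so that 47298 minus 45566B came to 2.90 log2 units. With 1 library a state in each line, these differences between lines were not tested.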

How the results depend on the processing

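In the independent libraries, the number of genes called was 0 in every alternative except a pseudocount of 0.1, with 4 genes called, none of them a member or another listed pathway gene; the cause was not tested. The Il1rn difference stayed below 0 and did not pass in all 11 alternatives, from -2.06 without 45566B wild type to -0.57 without 33373 and 33377. Without 33373 and 33377, Il18 was at 0.35 and Il1rap at -0.54. Leaving out 1 library at a time, Il33 ranged from -2.23 to 0.27 and Il1rap from -0.32 to 0.42, and the cause was not tested.

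In the pairs, 0 genes were called under each alternative but the fit without 47298, so that leaving out 1 line at a time gave 0 to 6; none was a listed pathway gene. Without the replicate block, 0 genes were called and 58 had an unadjusted p under 0.05, against 406 with it, and the block changed no other call. Within the lines, the pseudocount of 0.1 moved the values of Il1a, Il1r2 and Il1rl1, all near 0 in most libraries, and took the difference of Il33 in 45555 to -1.21 and that of Il1r1 in 45566B to 0.49. FPKM without counts give no interval for a single library, and values of Il1a, Il1b, Il1r2 and most of Il1rl1 are too low to compare.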
